A study of Mus musculus with 35 samples.

Results

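The BCL2 family decides whether a stressed cell opens the outer membrane of its mitochondria and dies. Survival members (MCL1, BCL2A1, BCL-xL and BCL2) hold back the pore formers BAX and BAK1, and BH3-only members such as BIM and BID bind the survival members or activate the pore formers directly. Neutrophils are known for a short life that rests largely on MCL1 and BCL2A1, and monocytes draw on several survival members. Levels of 10 such genes were followed here in myeloid-derived suppressor cells (MDSC) and in whole tumors: Mcl1, the 3 paralogs Bcl2a1a, Bcl2a1b and Bcl2a1d, Bcl2l1 (which encodes BCL-xL), Bcl2, Bax, Bak1, Bcl2l11 (which encodes BIM) and Bid. They were taken by gene symbol, and all 10 were found among the 53379 genes of the count table.

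The libraries came from mice with orthotopic pancreatic tumors of T110299, which is 1 cell line derived from the KPC model, in C57BL/6 hosts. On day 18 and day 20 after tumor induction, mice received 50 µg of poly(I:C) complexed with in vivo-jetPEI intravenously (poly(I:C)c, a ligand of the RNA sensor MDA5), or served as controls, which are labelled untreated and for which the protocol names glucose. After bead enrichment for CD11b, live PMN-MDSC (CD11b+Ly6CloLy6G+) and M-MDSC (CD11b+Ly6ChiLy6G-) were sorted from spleen and tumor, which gave 8 groups, and whole tumors of untreated mice were lysed without sorting. Each group held 4 libraries, except that treated spleen PMN-MDSC held 3, and treated tumor M-MDSC held 3 after a further library with 10 counts was left out. Total counts were 793070 to 4357105 in the 30 MDSC libraries and 3771590 to 8886115 in the 4 bulk tumor libraries. Libraries are numbered within a group in the order of the columns. Numbers in the column names fall into sets that match the repeated numbers of the sample titles, so that libraries of a set may come from 1 mouse, but no label says so, and the main comparisons were made without pairing. A fit with these sets as a block, chosen after seeing the data, is given where it changed a call. The labels give neither age nor batch, while the study's methods describe young female mice of matched age and count mice as replicates.

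Levels are given as CPM, the counts of a gene relative to all counts of its library, scaled with TMM factors over the 34 libraries. A gene was tested in a comparison where its mean was at least 25 counts, with edgeR's quasi-likelihood test and Benjamini-Hochberg adjustment over all genes tested in that comparison, and is said to have risen, fallen or been called where the adjusted p was under 0.05. A gene that is low in one group could reach this minimum through the other group, so counts and medians over the members tested only describe them. Fewer cells that express a gene and less of its RNA per cell cannot be told apart in such pools.

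The sort markers were checked first. Ly6g, the gene of the antigen that gates PMN-MDSC, reached 37.5 to 101 CPM in PMN-MDSC from spleens of untreated mice and 363 to 473 CPM in those of treated mice. In the libraries labelled as PMN-MDSC from tumors it was at 0 to 8.99 CPM without treatment and 5.05 to 86.5 CPM with it. The summed level of 10 neutrophil markers was 1427 to 4492 CPM in untreated tumor PMN-MDSC against 22183 to 41097 CPM in spleen, and 234 to 578 CPM in tumor M-MDSC. The 6 macrophage markers summed to 9933 to 13012 CPM in untreated tumor PMN-MDSC and to 3353 to 7887 CPM in tumor M-MDSC, against 494 to 1417 and 659.9 to 891 CPM in the spleen counterparts. Ly6c2, a gene of the antigen Ly6C that separates the gates, was at 44.1 to 118 CPM in PMN-MDSC and 94.1 to 171 CPM in M-MDSC of untreated spleens. In treated spleens it was at 798 to 1469 CPM in the libraries labelled as PMN-MDSC, which were sorted as low in Ly6C. M-MDSC there, sorted as high in Ly6C, held 669.6 to 873 CPM. This RNA goes against the PMN-MDSC label, although the gate is on surface protein. Ly6g, at 0 to 4.04 CPM in treated spleen M-MDSC, and the neutrophil markers went with that label. Their sum was 47439 to 82018 CPM in treated spleen PMN-MDSC against 728 to 3458 CPM in M-MDSC, with 10 of 10 called higher. Because of Ly6g in tumors and Ly6c2 in treated spleens, tumor PMN-MDSC and treated spleen PMN-MDSC are named here by their labels only. Library 2 of treated tumor M-MDSC stood apart with 2.71 CPM of Ly6c2, which was at 586 and 409 CPM in the other 2, and with a macrophage sum of 26026 CPM against 4886 and 9985 CPM. Library 4 of treated spleen M-MDSC held 96.4 CPM of 4 B cell markers, against at most 15.7 CPM in the other 3, and 18 CPM of 4 T cell markers, also above the other 3.

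The Bcl2a1 paralogs need a caveat from their sequence. Bcl2a1a (chr9:88956900-88962419, plus strand), Bcl2a1b (chr9:89199209-89207827, plus strand) and Bcl2a1d (chr9:88723285-88731914, minus strand; GRCm38) lie on chromosome 9 and differ at 12 of their 519 coding bases. The first 90 coding bases hold 6 of these positions, shown in capitals, and are printed 5′ to 3′ because they show how little tells the paralogs apart. They lie at chr9:88957051-88957140, chr9:89199360-89199449 and chr9:88731630-88731719:
Bcl2a1a: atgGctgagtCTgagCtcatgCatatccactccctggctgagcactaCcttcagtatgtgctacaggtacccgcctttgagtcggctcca
Bcl2a1b: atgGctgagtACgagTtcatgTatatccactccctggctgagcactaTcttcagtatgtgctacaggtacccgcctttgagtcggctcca
Bcl2a1d: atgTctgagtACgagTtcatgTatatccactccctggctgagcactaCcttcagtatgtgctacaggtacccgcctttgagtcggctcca
Coding identity between pairs was 97.9% to 98.8%. Of all 100-base stretches of a transcript, 43.5% of those of Bcl2a1a, 31.1% of those of Bcl2a1b and 54.7% of those of Bcl2a1d occur unchanged in another paralog. How such reads were assigned is not given in the sources used here, so values of single paralogs are uncertain and the sum of the 3 is given beside them. Bcl2a1b also shares 401 exon bases with Gm29094 and Bax shares 192 with Gm45808 on the same strand.

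Per kilobase of exon, Mcl1 was the most abundant of the 10 genes in each of the 9 groups, with 853 ± 289 FPKM (mean ± SD) in PMN-MDSC of untreated spleens, 227 ± 19.1 FPKM in M-MDSC of untreated spleens and 107 ± 4.11 FPKM in bulk tumor. In the 4 MDSC groups from tumors and in treated spleen M-MDSC, the next 3 places belonged to the Bcl2a1 paralogs, for example Bcl2a1d with 272 ± 75.4 FPKM in untreated tumor PMN-MDSC. Bcl2 took the last place in all 8 MDSC groups, from 0.253 ± 0.0504 FPKM in treated spleen PMN-MDSC to 2.45 ± 1.37 FPKM in treated spleen M-MDSC, and the third place in bulk tumor with 7.58 ± 2.32 FPKM. Among the death genes, Bak1 exceeded Bax per kilobase in each group, narrowly so in bulk tumor (5.9 ± 1.21 against 5.77 ± 0.298 FPKM). Genes were compared here by their means and the differences between genes were not tested.

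**Figure D1:**
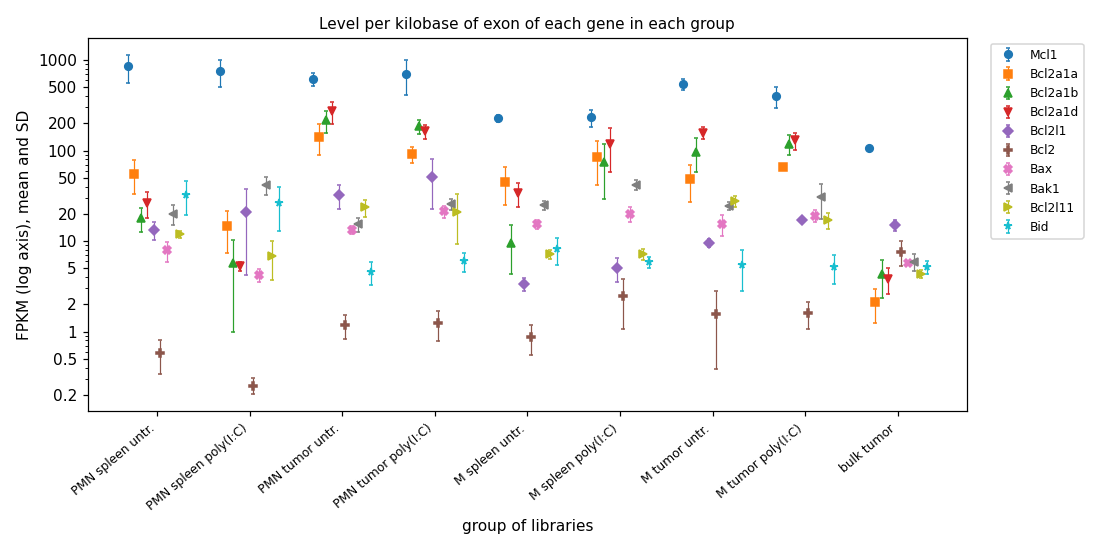
Mean level of each gene in FPKM (log axis, error bars are SD) in the 9 groups of 3 or 4 libraries. Mcl1 lies at the top of every group, between 107 and 853 FPKM, and Bcl2 at the bottom of the 8 MDSC groups, between 0.253 and 2.45 FPKM.

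Treatment with poly(I:C)c was called for 0 to 4 members in a MDSC population. In spleen PMN-MDSC, Bak1 rose and Bcl2a1a and Bcl2a1d fell, which made 1 of 8 tested genes higher and 2 lower, where 6.1% and 5.52% of all 7261 genes tested rose and fell. In spleen M-MDSC, Bcl2a1b, Bcl2a1d, Bcl2 and Bak1 rose and 0 of 10 fell, against 10.7% and 8.96% of 8827 genes. In tumor PMN-MDSC 0 of 10 were called by edgeR, against 2.29% higher and 1.07% lower of 8308 genes, while 4 had an unadjusted p under 0.05 and DESeq2 called 2, Bak1 and Bcl2a1d. In tumor M-MDSC only Bcl2l1 of 10 rose, against 1.82% higher and 1.06% lower of 8360 genes. The median log2 fold change of the members tested was -0.51 in spleen PMN-MDSC, 0.65 in spleen M-MDSC, 0.12 in tumor PMN-MDSC and 0.22 in tumor M-MDSC, and that of all genes tested lay between -0.01 and 0.01. By the study's stricter threshold (adjusted p under 0.001 and at least 2-fold), applied here to edgeR, 0 members passed in the 4 comparisons, where 0.0413%, 2.47%, 0.241% and 0.012% of all genes did, in the same order. With DESeq2, the tool the study used with this threshold, 2 (Bak1 and Bcl2a1d), 2 (Bcl2a1b and Bcl2a1d), 0 and 0 members passed, against 7.12%, 6.91%, 2.32% and 2.57% of all genes.

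**Figure D2:**
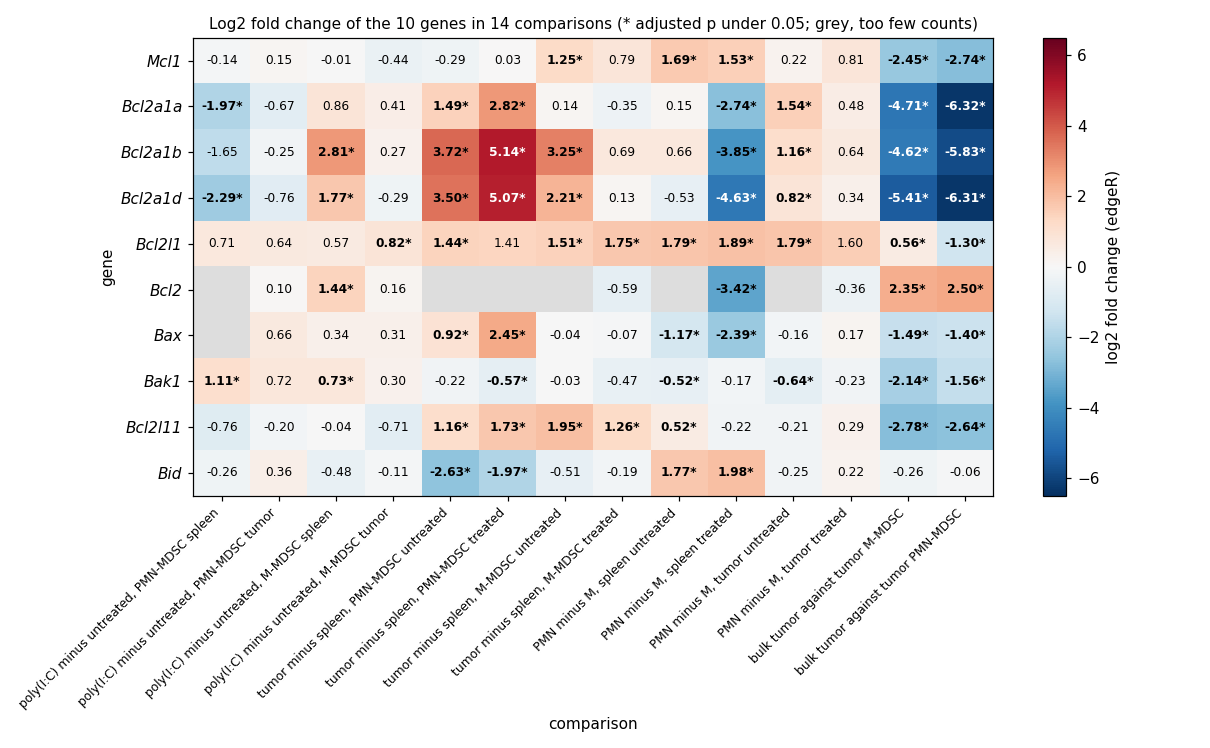
Log2 fold change of the 10 genes (rows) in the 14 comparisons of 2 groups (columns), red for higher and blue for lower in the first group named. Asterisks mark an adjusted p under 0.05 (edgeR) and grey cells had too few counts, and the darkest red cells are those of Bcl2a1b (5.14) and Bcl2a1d (5.07) for tumor against spleen in treated PMN-MDSC. Each of these genes had a mean of only 7.33 counts in the spleen libraries of that comparison.

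Mcl1 (chr3:95658788-95663176, plus strand) encodes a survival protein with a very short half-life. It was at 1962, 4295, 2574 and 2831 CPM in spleen PMN-MDSC of untreated mice and at 1621, 3203 and 2854 CPM in those of treated mice. In tumor PMN-MDSC it was at 1629, 2122, 2357 and 2375 CPM without and 1438, 1698, 2932 and 3543 CPM with treatment. These 4 groups of PMN-MDSC overlapped. Spleen M-MDSC held 749, 872, 727 and 757 CPM without and 715, 977, 881 and 594 CPM with treatment, and tumor M-MDSC held 1944, 1509.9, 2158 and 1802 and 1620.1, 964 and 1534 CPM. Bulk tumor, at 349.6, 383, 363 and 362 CPM, lay under every MDSC library.

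Treatment was called for Mcl1 in 0 of 4 comparisons by edgeR, with 0 at an unadjusted p under 0.05 and 0 by DESeq2. The log2 fold change was -0.14 (SE 0.30, adjusted p = 0.81) in spleen PMN-MDSC, 0.15 (SE 0.29, adjusted p = 0.835) in tumor PMN-MDSC, -0.01 (SE 0.15, adjusted p = 0.986) in spleen M-MDSC and -0.44 (SE 0.25, adjusted p = 0.386) in tumor M-MDSC. In 3 of the 4 the sign depended on single libraries or on the scaling. It turned to 0.09 and 0.06 in spleen PMN-MDSC without treated library 1 or untreated library 2, and to -0.09 in tumor PMN-MDSC without treated library 4. In spleen M-MDSC it turned to 0.01 with RLE scaling, and to 0.06, 0.12 and 0.04 without treated library 1 or 4 or untreated library 2. By contrast, Mcl1 was higher in PMN-MDSC than in M-MDSC in the spleen, by 1.69 (SE 0.19, adjusted p = 6.06e-05) on the log2 scale without and 1.53 (SE 0.29, adjusted p = 0.00218) with treatment, and there every PMN-MDSC library exceeded every M-MDSC library. It was higher in M-MDSC of tumors than in those of spleens in untreated mice, by 1.25 (SE 0.14, adjusted p = 4.73e-05). In treated mice the same difference was 0.79 (SE 0.26, adjusted p = 0.119), and 1.0 (adjusted p = 0.0489) without library 2 of the tumor group, and DESeq2 called it with all libraries (0.80, adjusted p = 0.0215).

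BCL2A1 is a survival protein whose genes NF-κB is known to induce. In spleen PMN-MDSC, Bcl2a1a was at 63.5, 25.9, 59.7 and 33.3 CPM without and 18.4, 10.1 and 7.12 CPM with treatment. Bcl2a1d was at 32.3, 25.2, 15.7 and 18.4 CPM and 4.37, 4.17 and 5.08 CPM. Bcl2a1b was at 20.5, 13, 10.5 and 14.6 CPM and 3.5, 8.93 and 1.53 CPM. For each of the 3 genes every treated library was below every untreated one. The treated libraries rested on few counts, 21, 17 and 14 for Bcl2a1a, 4, 15 and 3 for Bcl2a1b and 5, 7 and 10 for Bcl2a1d.

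Bcl2a1a fell by treatment in spleen PMN-MDSC (log2 fold change -1.97, SE 0.49, adjusted p = 0.0357), as did Bcl2a1d (log2 fold change -2.29, SE 0.40, adjusted p = 0.0104), whereas Bcl2a1b missed the threshold (log2 fold change -1.65, SE 0.56, adjusted p = 0.093). The summed paralogs were at 83.1 ± 24.2 CPM (SD, n = 4) without and 21.1 ± 6.53 CPM (SD, n = 3) with treatment and fell, with log2 fold change -1.98, SE 0.35, adjusted p = 0.0117. The call of Bcl2a1a was lost without treated library 2 or 3 or untreated library 1, 3 or 4 (adjusted p 0.0636 to 0.117), and Bcl2a1b was called without treated library 2 (log2 fold change -2.56, adjusted p = 0.0429) and by DESeq2 (adjusted p = 0.0425). Macrophage markers moved with this result: their sum was 494 to 1417 CPM in untreated and 92 to 241 CPM in treated spleen PMN-MDSC, all 6 of 6 having counts. The sum of 5 dendritic cell markers was 19 to 75.9 CPM without and 0.508 to 1.79 CPM with treatment, with Flt3, Xcr1 and Siglech at 0 in the treated libraries, and that of neutrophil markers was 22183 to 41097 CPM without and 47439 to 82018 CPM with it. Erythroid markers summed to 68.6 to 175 CPM without and 0.508 to 8.75 CPM with treatment, 2 of 2 tested being called lower. Treated library 1 stood apart with 725 CPM of 4 markers of dividing cells, against 76.8 and 43.7 CPM in the other 2. The part of these cells in the fall of Bcl2a1 was not tested.

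In spleen M-MDSC, Bcl2a1b and Bcl2a1d went the other way. Bcl2a1b was at 6.56, 3.54, 7.45 and 13.9 CPM without and 59.2, 104, 64.4 and 13.9 CPM with treatment, and rose (log2 fold change 2.81, SE 0.58, adjusted p = 0.0105). Bcl2a1d was at 31, 16.5, 34.2 and 34.1 CPM and 111, 170.0, 77.8 and 49.9 CPM, and rose as well (log2 fold change 1.77, SE 0.36, adjusted p = 0.00867). Bcl2a1a, at 56, 16.1, 41.6 and 35.2 CPM and 56.5, 106, 86.6 and 27 CPM, was not called (log2 fold change 0.86, SE 0.43, adjusted p = 0.203). The groups were apart for Bcl2a1d and overlapped for the other two, and treated library 4 held the lowest treated value of all 3 paralogs. That library is the one with B and T cell markers. Without it the log2 fold change was 3.14 (adjusted p = 0.000751) for Bcl2a1b and 2.02 (adjusted p = 0.00264) for Bcl2a1d. The sum was at 74 ± 25.7 CPM (SD, n = 4) and 232 ± 118 CPM (SD, n = 4) and rose, with log2 fold change 1.60, SE 0.41, adjusted p = 0.0249. Without the filter on low counts the calls of Bcl2a1b and Bcl2a1d were lost (adjusted p = 0.0694 and 0.0697). The macrophage sum was 659.9 to 891 CPM in untreated and 290.1 to 513 CPM in treated libraries, with 2 of its 6 markers called higher and 2 lower. Other marker sums without overlap there were those of 7 monocyte markers (5180.5 to 7822 CPM without and 2816 to 4303 CPM with treatment, 2 of 7 called higher and 3 lower), 3 NK cell markers (5.11 to 10.5 and 18.2 to 27.4 CPM, the 1 tested being called higher) and 5 erythroid markers (22.8 to 45.7 and 0 to 2.67 CPM, the 1 tested being called lower). Their part in the rise of the paralogs was not tested.

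The treatment effect on the paralogs was tested between the cell types of the spleen with an interaction term. It was more negative in PMN-MDSC than in M-MDSC for Bcl2a1a (log2 difference -2.78, SE 0.71, adjusted p = 0.0238), Bcl2a1b (log2 difference -4.40, SE 0.89, adjusted p = 0.00844) and Bcl2a1d (log2 difference -3.99, SE 0.59, adjusted p = 0.00204), and for their sum (log2 difference -3.52, SE 0.60, adjusted p = 0.00401). With Bcl2 and Bax, which are described further on, 5 of 10 genes were called in this interaction, against 10.9% of 8417 genes, and 0 by the stricter rule, which 0.119% of all genes passed. Bcl2 and Bax reached the count minimum here through M-MDSC, where they are higher. In the same interaction 4 of 6 macrophage markers and the 1 NK cell marker tested were called lower, and their part was not tested. The call of Bcl2a1a was lost without library 2 or 3 of treated PMN-MDSC (adjusted p 0.0538 to 0.0722).

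In tumors the paralogs were high in both cell types and treatment was not called for any of them. The sum was 383, 502, 668 and 558 CPM in untreated and 307, 338, 439 and 389 CPM in treated PMN-MDSC (log2 fold change -0.55, SE 0.20, adjusted p = 0.174). In M-MDSC it was 269, 216, 298 and 236 and 211, 275 and 302 CPM (log2 fold change 0.04, SE 0.20, adjusted p = 0.944). Bcl2a1b had log2 fold changes of -0.25 (SE 0.20, adjusted p = 0.561) and 0.27 (SE 0.32, adjusted p = 0.704). Bcl2a1d in tumor PMN-MDSC stood at -0.76 (SE 0.21, adjusted p = 0.0873) with edgeR and was called by DESeq2 (log2 fold change -0.75, adjusted p = 0.0234).

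Between spleen and tumor PMN-MDSC, Bcl2a1b and Bcl2a1d showed the widest differences of the members tested. In untreated PMN-MDSC, Bcl2a1b went from 20.5, 13, 10.5 and 14.6 CPM in spleen to 137, 167, 246 and 156 CPM in tumor (log2 fold change 3.72, SE 0.27, adjusted p = 4.36e-06). Bcl2a1d reached 159, 242, 316 and 221 CPM in tumor (log2 fold change 3.50, SE 0.29, adjusted p = 9.09e-06) and Bcl2a1a 87.3, 92.7, 106 and 181 CPM (log2 fold change 1.49, SE 0.33, adjusted p = 0.0031). In treated PMN-MDSC the log2 fold change was 5.14 (SE 0.47, adjusted p = 0.000146) for Bcl2a1b, 5.07 (SE 0.26, adjusted p = 3.64e-05) for Bcl2a1d and 2.82 (SE 0.36, adjusted p = 0.000433) for Bcl2a1a. The paralogs reached the count minimum there through the tumor libraries, where they are higher. In treated spleen PMN-MDSC their means were only 7.33, 7.33 and 17.3 counts, in the same order. In untreated M-MDSC the log2 fold change was 3.25 (SE 0.39, adjusted p = 9.05e-05) for Bcl2a1b, 2.21 (SE 0.22, adjusted p = 1.8e-05) for Bcl2a1d and 0.14 (SE 0.37, adjusted p = 0.815) for Bcl2a1a, the last one with overlapping groups. In treated M-MDSC edgeR and DESeq2 called 0 of the 3 paralogs and 0 had an unadjusted p under 0.05, at 0.69 (SE 0.52, adjusted p = 0.467), 0.13 (SE 0.38, adjusted p = 0.868) and -0.35 (SE 0.39, adjusted p = 0.628). The summed level in treated spleen M-MDSC, 232 ± 118 CPM (SD, n = 4), overlapped that of treated tumor M-MDSC, 262 ± 46.7 CPM (SD, n = 3).

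Whether treatment acted differently in spleen and tumor was tested by an interaction as well. In PMN-MDSC it was called for Bcl2a1d (log2 difference 1.55, SE 0.41, adjusted p = 0.0481) and Bax, which made 2 of 9 genes against 3.5% of 8047, and 0 by the stricter rule, as for all genes (0%). The sum of the paralogs gave 1.44 (SE 0.38, adjusted p = 0.0457). The call of Bcl2a1d was lost when any 1 of 12 of the 15 libraries was left out, that is all but untreated spleen libraries 3 and 4 and untreated tumor library 3 (adjusted p 0.0509 to 0.12), and with the replicate block, at 1.53 (adjusted p = 0.165). All 6 macrophage markers were called higher in this interaction too. In tumor PMN-MDSC the monocyte markers summed to 4593 to 8459 CPM without and 1646 to 2962 CPM with treatment, and the dendritic cell markers to 14.5 to 18.7 and 0 to 9.19 CPM. Their part was not tested. In M-MDSC edgeR called 0 of 10, against 0.79% of 8730 genes and 0.0115% by the stricter rule, with 3 at an unadjusted p under 0.05. There Bcl2a1d had -2.04 (SE 0.45, adjusted p = 0.051) and Bcl2a1b -2.53 (SE 0.72, adjusted p = 0.124), and DESeq2 called both (adjusted p = 0.00144 and 0.0155). Without library 4 of treated spleen M-MDSC edgeR called both too, at -2.28 (adjusted p = 0.02) for Bcl2a1d and -2.88 (adjusted p = 0.0256) for Bcl2a1b. In PMN-MDSC the interaction of Bcl2a1b, at 1.41 (SE 0.51, adjusted p = 0.161), became 2.38 (adjusted p = 0.0363) without treated spleen library 2.

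The share of each paralog in the Bcl2a1 counts is given without a test. Bcl2a1a made up 53.7% ± 12.1 (SD, n = 4) in untreated spleen PMN-MDSC and 22.4% ± 7.28 in tumor. In M-MDSC it made up 49.2% ± 7.79 in untreated spleen, 30.1% ± 5.54 in treated spleen and 15.6% ± 7.8 in untreated tumor. Bcl2a1b went from 10.6% ± 4.24 in untreated to 24.2% ± 6.01 in treated spleen M-MDSC. Over the 30 MDSC libraries, Pearson's r of log2(CPM + 1) was 0.928 between Bcl2a1b and Bcl2a1d and 0.751 between Bcl2a1a and each of the other two. These libraries share groups and the paralogs share reads, so the correlations only describe them.

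**Figure D3:**
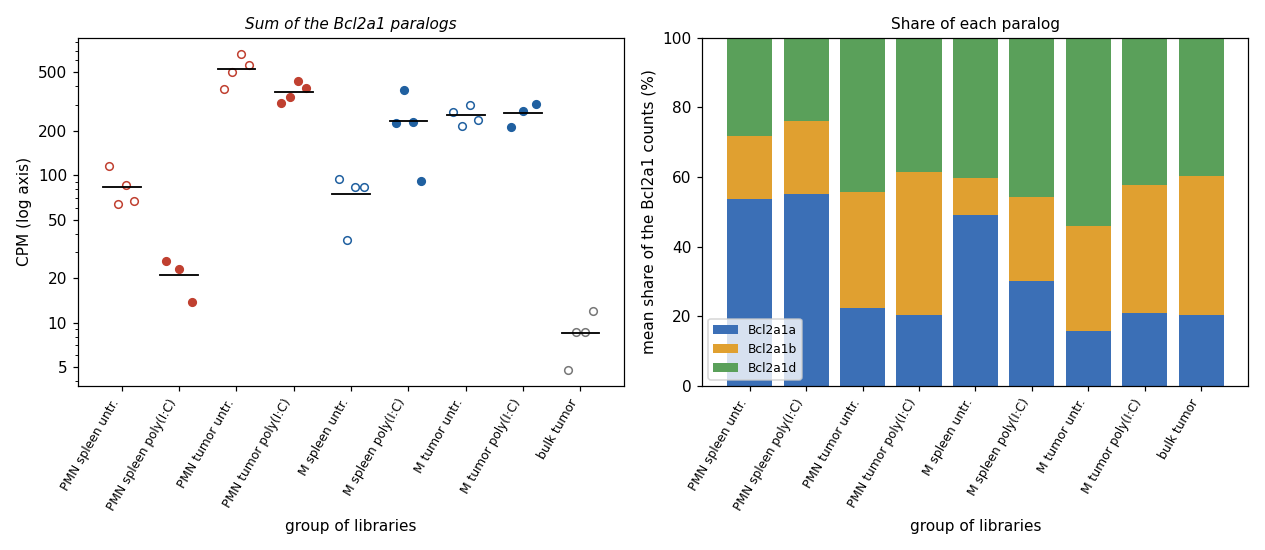
Left, summed CPM of the 3 Bcl2a1 paralogs (log axis) in each library, open circles for untreated and filled ones for treated mice, with lines at group means. Right, mean share of each paralog in the Bcl2a1 counts of a group, where Bcl2a1a makes up 53.7% in untreated spleen PMN-MDSC and 22.4% in untreated tumor PMN-MDSC.

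Bcl2l1 (chr2:152780668-152831728, minus strand) encodes the survival protein BCL-xL. It was the one member called for treatment in tumor M-MDSC, from 43.8, 38.2, 44.2 and 48.8 CPM to 79, 81.4 and 71.5 CPM, with every treated library above every untreated one (log2 fold change 0.82, SE 0.17, adjusted p = 0.0396). In the same libraries monocyte markers summed to 9007 to 11839 CPM without and 2691 to 4844 CPM with treatment, dendritic cell markers to 10.8 to 25.2 and 1.19 to 5.01 CPM and markers of dividing cells to 122 to 337 and 369 to 605 CPM, each without overlap, and their part was not tested. The call was lost without any one of the 7 libraries (adjusted p 0.0526 to 0.127). Elsewhere treatment was not called, with 0.57 (SE 0.25, adjusted p = 0.139) in spleen M-MDSC, 0.71 (SE 0.46, adjusted p = 0.356) in spleen PMN-MDSC and 0.64 (SE 0.36, adjusted p = 0.389) in tumor PMN-MDSC. The first became 0.71 (adjusted p = 0.0488) without treated library 2. In treated spleen PMN-MDSC its libraries held 49.9, 53.6 and 185 CPM, so the third lay well above the other two, and in treated tumor PMN-MDSC they held 119, 167, 239 and 418 CPM.

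PMN-MDSC carried more Bcl2l1 than M-MDSC in 3 of 4 comparisons. Untreated spleen PMN-MDSC had 54.5, 72.7, 73 and 44.5 CPM against 14.9, 15.3, 18.6 and 12.6 CPM in M-MDSC (log2 fold change 1.79, SE 0.20, adjusted p = 6.27e-05). The log2 fold change was 1.89 (SE 0.49, adjusted p = 0.0101) in treated spleens and 1.79 (SE 0.22, adjusted p = 0.000265) in untreated tumors. In treated tumors it was 1.60 (SE 0.40, adjusted p = 0.208) with edgeR, although the groups did not overlap, and DESeq2 called it (adjusted p = 0.00766). MDSC from tumors had more Bcl2l1 than MDSC from spleens in 3 of 4 comparisons. This difference was 1.44 (SE 0.25, adjusted p = 0.000741) in untreated PMN-MDSC, 1.51 (SE 0.18, adjusted p = 6.53e-05) in untreated and 1.75 (SE 0.24, adjusted p = 0.00626) in treated M-MDSC. In treated PMN-MDSC it was 1.41 (SE 0.55, adjusted p = 0.058), which became 2.25 (adjusted p = 0.00981) without the third spleen library and 1.68 (adjusted p = 0.0393) without the first tumor library. With the replicate block it was called too, at 1.68 (SE 0.28, adjusted p = 0.00298).

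Bcl2 (chr1:106538178-106714274, minus strand), the survival gene that lymphocytes are known to use, had few counts in MDSC. In spleen M-MDSC it rose with treatment from 7.87, 3.93, 9.81 and 9.97 CPM to 16.1, 14.4, 41 and 18 CPM (log2 fold change 1.44, SE 0.40, adjusted p = 0.0307), with every treated library above every untreated one. Treated library 3 held the highest value, and without it the log2 fold change was 0.99 (adjusted p = 0.061). NK cell markers moved in the same libraries, at 5.11 to 10.5 CPM without and 18.2 to 27.4 CPM with treatment, and their part was not tested. The call of Bcl2 was also lost without any one of the 4 untreated libraries (adjusted p 0.0563 to 0.0776). In spleen PMN-MDSC Bcl2 was under the count minimum, at 5.77, 7.92, 4.84 and 2.68 CPM without and 2.62, 1.79 and 2.54 CPM with treatment. The two-sided exact permutation test gave p = 0.0571 there, the smallest value that 4 against 3 libraries allow. The interaction in the spleen was called (log2 difference -2.47, SE 0.68, adjusted p = 0.0316), though not without untreated M-MDSC library 1, treated PMN-MDSC library 2 or 3 or untreated PMN-MDSC library 1 (adjusted p 0.0522 to 0.075), nor with the replicate block (-2.58, adjusted p = 0.0678). Without treated M-MDSC library 3 Bcl2 fell under the count minimum and was not tested. It had reached that minimum through M-MDSC, with means of 27.5 counts without and 71.25 with treatment against 12.5 and 3.67 counts in PMN-MDSC, so that the value rests on few counts. Between treated spleen cells Bcl2 was lower in PMN-MDSC than in M-MDSC (log2 fold change -3.42, SE 0.53, adjusted p = 0.000876), with the same few counts.

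Bcl2 was also compared between sites. Untreated tumor PMN-MDSC had 11.1, 14.9, 8.21 and 8.64 CPM, above each spleen library (exact permutation p = 0.0286, two-sided, the smallest that 4 against 4 libraries allow). Without the filter on low counts edgeR called this difference (1.11, adjusted p = 0.0471). Treated tumor PMN-MDSC had 14.7, 15.1, 7.81 and 7.82 CPM, again above each spleen library (exact permutation p = 0.0571, two-sided, the smallest possible), and the difference without the filter was 2.38 (adjusted p = 0.000701). The median log2 fold change of all genes in these unfiltered fits was 0.14 in untreated and 0.74 in treated mice, so the Bcl2 differences are smaller relative to it. In M-MDSC the sites overlapped, with an exact permutation p of 0.343 (two-sided) in untreated mice and -0.59 (SE 0.42, adjusted p = 0.443) in treated ones. In tumor M-MDSC it was at 8.21, 9.89, 8.94 and 30.8 CPM without and 10.7, 20 and 13.3 CPM with treatment, and untreated library 4 stood out with 30.8 CPM from 24 counts. Treatment was not called in tumor PMN-MDSC (0.10, SE 0.34, adjusted p = 0.908) or tumor M-MDSC (0.16, SE 0.49, adjusted p = 0.901).

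**Figure D4:**
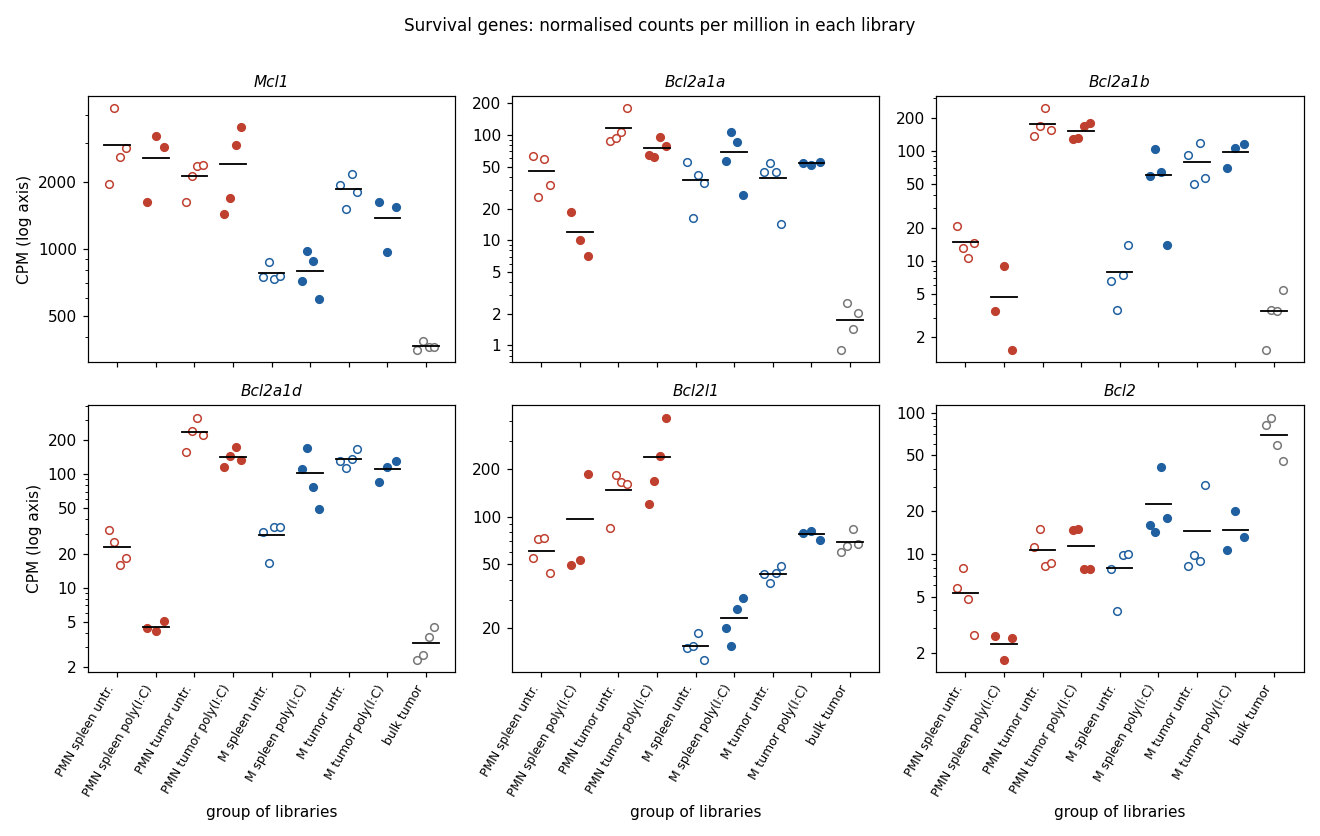
CPM (log axis) of the 6 survival genes in each library of the 9 groups, red for PMN-MDSC, blue for M-MDSC and grey for bulk tumor, open circles for untreated and filled ones for treated mice, with lines at group means. The 3 treated spleen PMN-MDSC libraries sit between 4.17 and 5.08 CPM for Bcl2a1d, below the 4 untreated ones at 15.7 to 32.3 CPM.

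The pore formers BAX and BAK1 puncture the mitochondrial membrane once activated. Bak1 (chr17:27019810-27029009, minus strand) rose with treatment in both spleen populations. In PMN-MDSC it went from 44.7, 66.9, 42.7 and 39.1 CPM to 76.1, 105 and 120.5 CPM (log2 fold change 1.11, SE 0.23, adjusted p = 0.0201). In M-MDSC it went from 58.2, 68.4, 60.2 and 52.5 CPM to 90.1, 111, 111 and 91.1 CPM (log2 fold change 0.73, SE 0.12, adjusted p = 0.00277). The groups did not overlap in either cell type. In PMN-MDSC the call was lost without treated library 3 or untreated library 1, 3 or 4 (adjusted p 0.0533 to 0.0821), while in M-MDSC it held without each library. In tumor PMN-MDSC it went from 31.6, 44.2, 39.5 and 31.7 CPM to 62, 61.2, 51.9 and 72.3 CPM, again without overlap, and fell just short of the threshold (log2 fold change 0.72, SE 0.18, adjusted p = 0.0529), with DESeq2 calling it (adjusted p = 0.0105), as edgeR did without treated library 3 (0.80, adjusted p = 0.0497). In tumor M-MDSC the levels were 64, 63.3, 53.4 and 54 CPM and 98.5, 38.6 and 82.1 CPM (log2 fold change 0.30, SE 0.29, adjusted p = 0.635), where the 38.6 CPM belong to library 2, which is low in Ly6c2.

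Interferon-stimulated genes were followed beside Bak1. The sum of Ifit1, Ifit3, Isg15, Oasl2 and Rsad2 was 1223 to 2600.0 CPM in untreated and 4964 to 15134 CPM in treated spleen PMN-MDSC, 262 to 289.7 and 1628 to 3453 CPM in spleen M-MDSC, 267 to 484 and 1541 to 3845 CPM in tumor PMN-MDSC, and 228 to 340.4 and 638 to 1870.4 CPM in tumor M-MDSC. The genes most like Bak1 over the 30 MDSC libraries, by Pearson's r of log2(CPM + 1) among 8535 other genes past the same minimum of 25 counts, were Ifi35 (r = 0.946) and Daxx (r = 0.932). Neither relation was tested. The interaction of treatment with site or cell type was not called for Bak1, with log2 differences of -0.36 (SE 0.29, adjusted p = 0.604), -0.41 (SE 0.31, adjusted p = 0.597), 0.48 (SE 0.24, adjusted p = 0.223) and 0.42 (SE 0.35, adjusted p = 0.785) for PMN-MDSC and M-MDSC between sites and for spleen and tumor between cell types.

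Between cell types, Bak1 was lower in PMN-MDSC than in M-MDSC in untreated spleens (-0.52, SE 0.16, adjusted p = 0.0165) and untreated tumors (-0.64, SE 0.18, adjusted p = 0.0297). The first call was lost without untreated PMN-MDSC library 3 or 4 (adjusted p 0.0777 to 0.0917) and with RLE scaling (adjusted p = 0.0535). The second was lost without M-MDSC library 1 or 2 or PMN-MDSC library 1, 3 or 4 (adjusted p 0.0617 to 0.0971). In treated PMN-MDSC Bak1 was lower in tumor than in spleen (-0.57, SE 0.20, adjusted p = 0.038), which did not hold without spleen library 2 or 3 or any tumor library (adjusted p 0.0604 to 0.123), nor with the replicate block (-0.53, adjusted p = 0.0913).

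Bax (chr7:45461697-45466898, minus strand) had a different pattern. In spleen PMN-MDSC it was under the count minimum, at 12.4, 14.4, 14.9 and 8.05 CPM without and 7.0, 5.36 and 7.63 CPM with treatment, every treated library being lower (exact permutation p = 0.0571, two-sided, the smallest possible). In tumor PMN-MDSC it was at 19.9, 18.2, 23.1 and 22.1 CPM without and 36.1, 37.1, 26.2 and 34.2 CPM with treatment, every treated library being higher (log2 fold change 0.66, SE 0.19, adjusted p = 0.0994). The interaction between spleen and tumor was called in PMN-MDSC (log2 difference 1.54, SE 0.35, adjusted p = 0.0272), though not without treated spleen library 2 or 3, treated tumor library 1 or 2 or untreated tumor library 2 (adjusted p 0.0534 to 0.0722), nor with the replicate block (1.43, adjusted p = 0.0971). Bax reached the count minimum there through the tumor libraries, with means of 43 and 97 counts against 30.25 and 10.7 in spleen. The part of the macrophage, monocyte and dendritic cell markers given for Bcl2a1d was not tested here either. In M-MDSC treatment gave 0.34 (SE 0.15, adjusted p = 0.143) in spleen and 0.31 (SE 0.27, adjusted p = 0.581) in tumor. The interaction between cell types of the spleen was -1.11 (SE 0.33, adjusted p = 0.0437), and leaving out any 1 of 11 of the 15 libraries ended that call (adjusted p 0.0517 to 0.0989), the exceptions being untreated PMN-MDSC libraries 3 and 4, treated PMN-MDSC library 1 and treated M-MDSC library 4. The replicate block ended it too (-0.99, adjusted p = 0.126).

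Bax was higher in tumor than in spleen PMN-MDSC, by 0.92 (SE 0.25, adjusted p = 0.00918) on the log2 scale without and 2.45 (SE 0.29, adjusted p = 0.00031) with treatment. In M-MDSC the sites gave -0.04 (SE 0.22, adjusted p = 0.91) and -0.07 (SE 0.20, adjusted p = 0.853). Spleen PMN-MDSC had less Bax than spleen M-MDSC, which held 21.9, 27.1, 26.4 and 22 CPM without and 27.9, 38.4, 33.4 and 25.9 CPM with treatment (-1.17, SE 0.22, adjusted p = 0.00122, and -2.39, SE 0.27, adjusted p = 0.000207). Treated spleen PMN-MDSC had a mean of 10.7 counts of Bax. In their comparisons Bax reached the count minimum through tumor PMN-MDSC or spleen M-MDSC, where it is higher.

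BH3-only proteins carry death signals to the family. Bcl2l11 (chr2:128126038-128162547, plus strand), whose product BIM limits the life of myeloid cells, was higher in tumors than in spleens in all 4 comparisons. In untreated M-MDSC it went from 65.6, 60.6, 51.8 and 53.2 CPM in spleen to 247, 179.9, 246 and 217 CPM in tumor (log2 fold change 1.95, SE 0.15, adjusted p = 1.71e-06), and in treated ones from 48.1, 64.6, 62.3 and 54.4 to 106, 141 and 164 CPM (log2 fold change 1.26, SE 0.19, adjusted p = 0.00961). In untreated PMN-MDSC it went from 88.9, 102, 102 and 87.8 to 205, 156, 239.7 and 155 CPM (log2 fold change 1.16, SE 0.18, adjusted p = 0.00036), and in treated ones from 30.6, 81 and 52.9 to 93.8, 126, 148 and 307 CPM (log2 fold change 1.73, SE 0.45, adjusted p = 0.011). The groups did not overlap in these comparisons. With the replicate block the difference in treated M-MDSC was 1.16 and no longer called (adjusted p = 0.0679).

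Treatment was not called for Bcl2l11. Its log2 fold change was -0.76 (SE 0.28, adjusted p = 0.113) in spleen PMN-MDSC and -0.71 (SE 0.21, adjusted p = 0.109) in tumor M-MDSC, where every treated library was below every untreated one, and -0.20 (SE 0.32, adjusted p = 0.792) and -0.04 (SE 0.13, adjusted p = 0.872) in the other two groups. DESeq2 called it in tumor M-MDSC (adjusted p = 0.0349). In spleen PMN-MDSC it was called without treated library 2, at -1.09 (adjusted p = 0.0447), and so was the interaction between the cell types of the spleen, at -1.03 (adjusted p = 0.0305) against -0.63 (SE 0.31, adjusted p = 0.21) with all libraries. Bcl2l11 was higher in PMN-MDSC than in M-MDSC of untreated spleens, by 0.52 (SE 0.13, adjusted p = 0.00569).

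Bid (chr6:120891930-120916853, minus strand) links caspase-8 to mitochondria and was lower in tumor than in spleen PMN-MDSC. Spleen PMN-MDSC held 64.9, 175, 96 and 125 CPM without and 55.1, 145 and 78.3 CPM with treatment, while tumor PMN-MDSC held 9.37, 17.7, 18.4 and 19.7 and 22.9, 27.9, 17.5 and 16.6 CPM. The log2 fold change of tumor against spleen was -2.63 (SE 0.32, adjusted p = 7.35e-05) without and -1.97 (SE 0.34, adjusted p = 0.00169) with treatment, with no overlap. Neutrophil markers were lower in the same libraries, 10 of 10 being called without and 9 of 10 with treatment, and in treated mice they summed to 47439 to 82018 CPM in spleen and 3717 to 11742 CPM in tumor. Their part was not tested. In M-MDSC the log2 fold change of Bid was -0.51 (SE 0.31, adjusted p = 0.242) and -0.19 (SE 0.27, adjusted p = 0.711). Spleen PMN-MDSC exceeded spleen M-MDSC, which held 21.4, 42.1, 23.7 and 27.5 CPM without and 20.5, 21.6, 24.3 and 17.2 CPM with treatment (1.77, SE 0.29, adjusted p = 0.000554, and 1.98, SE 0.31, adjusted p = 0.000994). Treatment was not called for Bid in the 4 comparisons, with log2 fold changes from -0.48 in spleen M-MDSC to 0.36 in tumor PMN-MDSC.

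**Figure D5:**
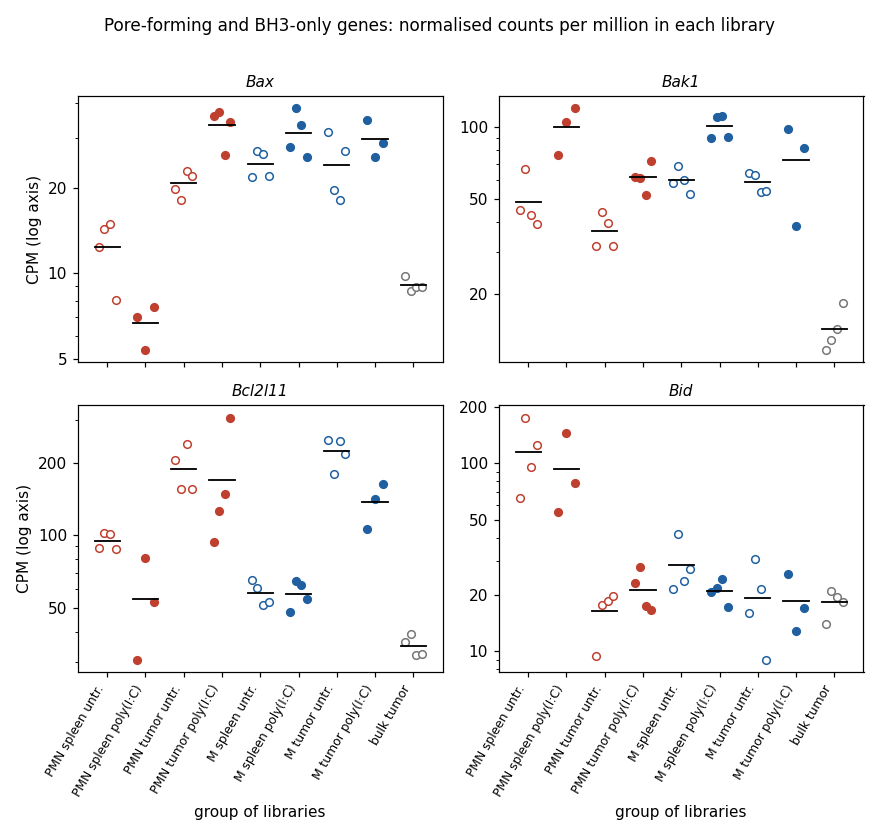
CPM (log axis) of Bax, Bak1, Bcl2l11 and Bid in each library of the 9 groups, red for PMN-MDSC, blue for M-MDSC and grey for bulk tumor, open circles for untreated and filled ones for treated mice, with lines at group means. Bak1 of treated spleen M-MDSC lies at 90.1 to 111 CPM, above the untreated libraries at 52.5 to 68.4 CPM, and Bid of spleen PMN-MDSC lies above that of tumor PMN-MDSC.

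Over the family, tumor against spleen in untreated PMN-MDSC had 6 of 9 tested genes higher (the 3 Bcl2a1 paralogs, Bcl2l1, Bcl2l11 and Bax) and 1 lower (Bid), where 29.4% and 29.7% of 7971 genes were higher and lower. In treated PMN-MDSC 5 were higher (the paralogs, Bax and Bcl2l11) and 2 lower (Bid and Bak1), against 28.2% and 25.4% of 8031. In untreated M-MDSC 5 of 9 were higher (Bcl2a1b, Bcl2a1d, Bcl2l11, Bcl2l1 and Mcl1) and 0 lower, against 15.7% and 12.7% of 8298. In treated M-MDSC 2 of 10 were higher (Bcl2l1 and Bcl2l11) and 0 lower, against 5.11% and 0.764% of 9026, and without the library low in Ly6c2 Mcl1 made it 3. Members' median log2 fold changes were 1.16, 1.73, 1.25 and 0.03, in this order, against 0.01, 0.04, 0.02 and -0.01 for all genes tested. The stricter rule was passed by 5, 4, 5 and 0 members with edgeR and by 21.7%, 13%, 8.6% and 0.188% of all genes, and by 6, 6, 5 and 2 members with DESeq2, against 32.5%, 32.5%, 11.8% and 4.55% of all genes. Macrophage marker sums were higher in tumor along with these differences, as given above, and in treated mice were 92 to 241 CPM in spleen and 8279.8 to 17449.5 CPM in tumor PMN-MDSC, and 290.1 to 513 CPM in spleen and 4886 to 26026 CPM in tumor M-MDSC. The neutrophil markers given for Bid were lower in tumor PMN-MDSC. Of 7 monocyte markers 6 were called higher there and 1 lower, both without and with treatment. All 3 tested tumor epithelium markers were higher, and 4 of 5 interferon-stimulated genes without and 5 of 5 with treatment were lower. In untreated tumor M-MDSC 2 of 2 tested markers of dividing cells were lower, as were 5 of 7 tested neutrophil markers, with 1 higher. Their part in the differences was not tested.

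PMN-MDSC and M-MDSC of untreated spleens differed in 6 of 9 genes. Mcl1, Bcl2l1, Bid and Bcl2l11 were higher and Bax and Bak1 lower in PMN-MDSC, against 30.9% higher and 33.4% lower of 8579 genes. In treated spleens 8 of 10 differed, with Mcl1, Bcl2l1 and Bid higher and Bax, Bcl2 and the 3 Bcl2a1 paralogs lower, against 28.8% and 32.4% of 8153 genes. There the paralogs gave -2.74 (SE 0.53, adjusted p = 0.00266), -3.85 (SE 0.80, adjusted p = 0.00374) and -4.63 (SE 0.49, adjusted p = 0.00018) for a, b and d. Bax, Bcl2 and the paralogs reached the count minimum there through M-MDSC, where they are higher. Their means in treated PMN-MDSC were 10.7 (Bax), 3.67 (Bcl2), 17.3 (Bcl2a1a), 7.33 (Bcl2a1b) and 7.33 (Bcl2a1d) counts. Markers of other cells moved with these differences. In untreated spleens 10 of 10 neutrophil, 4 of 6 macrophage, 2 of 2 tested erythroid, 1 of 2 tested dendritic cell and 1 of 2 tested B cell markers were called higher and 7 of 7 monocyte markers lower in PMN-MDSC, and the erythroid sum was 68.6 to 175 CPM against 22.8 to 45.7 CPM. In treated spleens 10 of 10 neutrophil markers were called higher, and 6 of 7 monocyte, 4 of 5 tested macrophage and the 1 tested NK cell marker lower, with macrophage sums of 92 to 241 and 290.1 to 513 CPM. Their part was not tested. In untreated tumors 4 of 9 were higher in PMN-MDSC (Bcl2l1 and the paralogs) and Bak1 was lower, against 7.25% and 5.73% of 7623 genes. The paralogs gave 1.54 (SE 0.32, adjusted p = 0.00917), 1.16 (SE 0.27, adjusted p = 0.0158) and 0.82 (SE 0.20, adjusted p = 0.0173). With the replicate block Bcl2a1a was no longer called (adjusted p = 0.0724). The call of Bcl2a1b was lost without PMN-MDSC library 3 (adjusted p = 0.0523), and that of Bcl2a1d without M-MDSC library 2 or PMN-MDSC library 2 or 3 (adjusted p 0.0533 to 0.0651), while the sum gave 1.08 (SE 0.18, adjusted p = 0.0018). In untreated spleens the paralogs were not called, at 0.15 (SE 0.40, adjusted p = 0.759), 0.66 (SE 0.40, adjusted p = 0.165) and -0.53 (SE 0.30, adjusted p = 0.143), but Bcl2a1d became -0.72 (adjusted p = 0.041) without M-MDSC library 2 and -0.81 (adjusted p = 0.0235) without PMN-MDSC library 1, and Bcl2a1b became 1.12 (adjusted p = 0.0292) without M-MDSC library 4.

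In treated tumors edgeR called 0 of 10 genes between the cell types, against 0.38% higher and 0% lower of 8955 genes, with 3 at an unadjusted p under 0.05 and 1 called by DESeq2 (Bcl2l1). Leaving out the library low in Ly6c2 left the count at 0. The interaction of treatment with cell type in tumors was called by both tools for 0 of 10 genes, against 0.0239% of 8385 genes with edgeR, and 1 had an unadjusted p under 0.05. Members' median log2 fold changes were 0.52, -1.31, 0.22 and 0.32 in untreated and treated spleens and untreated and treated tumors, and those of all genes -0.08, -0.11, -0.01 and -0.07. The stricter rule was passed by 3, 4, 1 and 0 members and by 23.2%, 21.2%, 1.65% and 0% of all genes, and by 0% in the interaction. With DESeq2, 4, 8, 3 and 0 members passed it between the cell types, against 34.2%, 40%, 5.1% and 1.04% of all genes. In untreated tumors the macrophage sum was higher in the PMN-MDSC libraries than in M-MDSC, at the values given above. There 5 of 9 tested neutrophil markers were called higher too, and 4 of 7 monocyte markers lower and 1 higher. Monocyte markers summed to 4593 to 8459 CPM in these PMN-MDSC and to 9007 to 11839 CPM in M-MDSC. The part of these markers was not tested.

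Bulk tumor carried a different balance. Bcl2 was at 81.2, 92.2, 59.1 and 45.1 CPM, above every MDSC library, and exceeded tumor M-MDSC (log2 fold change 2.35, SE 0.37, adjusted p = 0.00015) and tumor PMN-MDSC (log2 fold change 2.50, SE 0.28, adjusted p = 8.36e-06) of untreated mice. Bcl2l1, at 59.8, 65.4, 83.7 and 67 CPM, was higher than in M-MDSC (log2 fold change 0.56, SE 0.17, adjusted p = 0.0108) and lower than in PMN-MDSC (log2 fold change -1.30, SE 0.22, adjusted p = 0.000259). The Bcl2a1 sum was only 4.76, 8.69, 8.64 and 11.9 CPM, which is log2 fold change -5.0, SE 0.29, adjusted p = 6.1e-08 against M-MDSC and log2 fold change -6.14, SE 0.31, adjusted p = 1.62e-08 against PMN-MDSC. Single paralogs gave -4.71 (SE 0.44, adjusted p = 2.57e-06), -4.62 (SE 0.41, adjusted p = 1.54e-06) and -5.41 (SE 0.25, adjusted p = 1.78e-08) against M-MDSC and -6.32 (SE 0.35, adjusted p = 2.67e-08), -5.83 (SE 0.35, adjusted p = 7.14e-08) and -6.31 (SE 0.30, adjusted p = 1.07e-08) against PMN-MDSC.

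Mcl1 was lower in bulk tumor than in M-MDSC (-2.45, SE 0.20, adjusted p = 6.77e-07) and PMN-MDSC (-2.74, SE 0.19, adjusted p = 1.31e-07), and so were Bcl2l11 (-2.78, SE 0.17, adjusted p = 9.48e-08, and -2.64, SE 0.18, adjusted p = 1.38e-07), Bak1 (-2.14, SE 0.21, adjusted p = 3.31e-06, and -1.56, SE 0.22, adjusted p = 5.18e-05) and Bax (-1.49, SE 0.24, adjusted p = 0.000162, and -1.40, SE 0.19, adjusted p = 5.26e-05). Bid, at 14, 20.9, 19.4 and 18.2 CPM, was not called (-0.26, SE 0.32, adjusted p = 0.478, and -0.06, SE 0.25, adjusted p = 0.839). Against M-MDSC this made 2 of 10 higher and 7 lower, where 38.2% and 31% of 11022 genes were. Against PMN-MDSC it made 1 higher and 8 lower, where 36.1% and 33.3% of 11138 were. The stricter rule was passed by 8 and 9 members, against 41.9% and 40.1% of all genes. The median of the members was -2.30 and -2.10, and that of all genes tested was 0.17 against M-MDSC and 0.09 against PMN-MDSC, so changes against M-MDSC read 0.17 lower relative to it. The keratin and tumor epithelium markers summed to 3541 to 5705 CPM in bulk tumor, against 13.7 to 229 CPM in tumor M-MDSC and 87.6 to 596 CPM in tumor PMN-MDSC. Ly6g and Retnlg were at 0 in bulk tumor, with neutrophil markers summing to 10.2 to 19.7 CPM. Fibroblast markers summed to 793 to 1049 CPM in bulk tumor, where 4 of 4 were called higher than in both MDSC, and T cell markers to 5.79 to 34 CPM against 1.09 to 2.57 CPM in M-MDSC and 0 to 4.42 CPM in PMN-MDSC. Genes of dividing cells summed to 687 to 1455 CPM in bulk tumor, 122 to 337 CPM in M-MDSC and 239 to 455 CPM in PMN-MDSC. Macrophage markers summed to 780.5 to 1292 CPM, with 6 of 6 called lower than in both. The part of these cells in the differences was not tested. Only untreated tumors were sampled in bulk.

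Of 16 further BCL2 family genes, 6 to 8 were tested in a comparison. Treatment lowered Bmf, another BH3-only gene, in spleen PMN-MDSC (-0.96, SE 0.23, adjusted p = 0.0301) and in spleen M-MDSC (-1.42, SE 0.16, adjusted p = 0.000374), where Bnip3l, a gene of mitophagy, fell too (-0.53, SE 0.15, adjusted p = 0.0357). Thus 1 of 7 and 2 of 8 fell and 0 rose, where 5.52% and 8.96% of all genes fell. In tumors edgeR called 0 of 6 in PMN-MDSC and 0 of 7 in M-MDSC, with 1 and 0 at an unadjusted p under 0.05 and 1 and 0 called by DESeq2, and of all genes edgeR called 2.29% higher and 1.07% lower in the first and 1.82% and 1.06% in the second. Tumor against spleen gave 3 of 6 lower in untreated PMN-MDSC, 1 of 7 higher in treated ones, 2 of 7 higher and 1 lower in untreated M-MDSC and 1 of 8 higher in treated ones, where the shares of all genes higher and lower were 29.4% and 29.7%, 28.2% and 25.4%, 15.7% and 12.7%, and 5.11% and 0.764% in this order. Bmf was lower in tumor in untreated PMN-MDSC (-1.30, SE 0.23, adjusted p = 0.000704) and M-MDSC (-1.87, SE 0.24, adjusted p = 0.00012). The hypoxia-responsive Bnip3 was higher in tumor in treated PMN-MDSC (2.10, SE 0.58, adjusted p = 0.0146) and in untreated (2.34, SE 0.26, adjusted p = 4.64e-05) and treated M-MDSC (2.20, SE 0.28, adjusted p = 0.00411). Bulk tumor had 2 of 8 higher and 2 lower than M-MDSC and 3 higher and 2 lower than PMN-MDSC, against 38.2% and 31% and against 36.1% and 33.3% of all genes. The pore-forming relative Bok was higher there (4.59, SE 0.65, adjusted p = 6.94e-05 against M-MDSC and 2.91, SE 0.38, adjusted p = 3.3e-05 against PMN-MDSC), and the BH3-only gene Pmaip1 was lower (-1.46, SE 0.19, adjusted p = 3.86e-05 and -1.38, SE 0.21, adjusted p = 0.000119). Values in parentheses here and for the lists that follow are log2 fold changes, or log2 differences for an interaction, and percentages after the words all genes are the shares of all genes tested that edgeR called higher and lower.

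Between PMN-MDSC and M-MDSC of untreated spleens, 3 of 7 of these family genes were higher and 1 lower (all genes 30.9% and 33.4%), led by Bmf (-1.16, SE 0.14, adjusted p = 9.45e-05) and Bnip3 (1.86, SE 0.23, adjusted p = 0.0001). In treated spleens 2 of 7 were higher and 1 lower (all genes 28.8% and 32.4%), led by Bnip3l (1.36, SE 0.17, adjusted p = 0.000355) and Bnip3 (1.75, SE 0.40, adjusted p = 0.0058). In tumors edgeR called 0 of 6 and 0 of 7 without and with treatment, with 0 and 1 at an unadjusted p under 0.05 and 0 and 1 called by DESeq2, and of all genes edgeR called 7.25% higher and 5.73% lower in the first and 0.38% and 0% in the second. The treatment effect on Bmf differed between spleen and tumor PMN-MDSC (1.51, SE 0.34, adjusted p = 0.0235), a call that 3.5% of all genes had.

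Downstream of the family, cytochrome c activates the apoptosome and caspases, which IAP proteins restrain. Of 18 such genes, 13 to 16 were tested. With treatment 2 of 13 rose in spleen PMN-MDSC, among them Casp8 (1.10, SE 0.22, adjusted p = 0.0171), which starts the cascade from death receptors, against 6.1% of all genes. In spleen M-MDSC 2 of 16 rose, Cycs for cytochrome c (0.96, SE 0.16, adjusted p = 0.00266) and Birc2 for an IAP (0.72, SE 0.12, adjusted p = 0.00332), and Casp6 fell, against 10.7% and 8.96% of all genes rising and falling. In tumor M-MDSC edgeR called Casp6 alone of 16, which fell (-1.52, SE 0.34, adjusted p = 0.0496), as did 1.06% of all genes. There 4 of the list had an unadjusted p under 0.05 and DESeq2 called 3. In tumor PMN-MDSC edgeR called 0 of 16, with 4 at an unadjusted p under 0.05 and 2 called by DESeq2, against 2.29% of all genes called higher and 1.07% called lower by edgeR. Between sites 4 of 15 were higher and 3 lower in tumor in untreated PMN-MDSC, with Casp8 (0.89, SE 0.17, adjusted p = 0.0013) among the higher ones (all genes 29.4% and 29.7%). In treated PMN-MDSC 1 of 14 was higher, Cycs (2.40, SE 0.29, adjusted p = 0.000371), and 6 were lower (all genes 28.2% and 25.4%). In untreated M-MDSC 3 of 16 were higher and 3 lower (all genes 15.7% and 12.7%), with Casp2 (-1.20, SE 0.19, adjusted p = 0.000598) and Birc3 (0.83, SE 0.15, adjusted p = 0.00111) first, and in treated M-MDSC edgeR called 0 of 16, with 1 at an unadjusted p under 0.05 and 0 called by DESeq2, against 5.11% of all genes called higher and 0.764% called lower by edgeR.

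PMN-MDSC of untreated spleens had 3 of 16 of the caspase pathway genes higher and 7 lower than M-MDSC (all genes 30.9% and 33.4%), Casp8 (-1.23, SE 0.16, adjusted p = 0.000162) and the mitochondrial Aifm1 (-1.52, SE 0.22, adjusted p = 0.000278) with the smallest p-values. In treated spleens it was 3 higher and 5 lower (all genes 28.8% and 32.4%), led by Cycs (-2.41, SE 0.28, adjusted p = 0.000233) and Htra2 (-1.64, SE 0.32, adjusted p = 0.00253). In untreated tumors edgeR called Casp8 alone of 15, which was lower (-0.62, SE 0.14, adjusted p = 0.0128), against 5.73% of all genes. There 4 of the list had an unadjusted p under 0.05 and DESeq2 called 3. In treated tumors edgeR called 0 of 16, with 2 at an unadjusted p under 0.05 and 0 called by DESeq2, and 0.38% of all genes called higher and 0% called lower by edgeR. Bulk tumor had 5 of 16 higher and 7 lower than M-MDSC, led by Apaf1 (-1.95, SE 0.16, adjusted p = 8.11e-07) and Birc3 (-3.19, SE 0.27, adjusted p = 9.77e-07), and 6 higher and 8 lower than PMN-MDSC, with Birc3 (-3.43, SE 0.28, adjusted p = 5.77e-07) among the lower ones, where all genes had 38.2% and 31% in the first and 36.1% and 33.3% in the second. The treatment effect differed between PMN-MDSC of spleen and tumor for Cycs (1.61, SE 0.40, adjusted p = 0.0381) and Casp8 (-0.89, SE 0.23, adjusted p = 0.0464), and between the cell types of the spleen for Cycs (-1.50, SE 0.32, adjusted p = 0.0106), Casp2 (0.98, SE 0.23, adjusted p = 0.018) and Casp8, which are 2 and 3 genes against 3.5% and 10.9% of all genes.

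All 12 regulators of the family were tested. Treatment lowered Huwe1, a ubiquitin ligase of MCL1, in spleen PMN-MDSC (-0.98, SE 0.26, adjusted p = 0.0451), 1 of 12 against 5.52% of all genes. In spleen M-MDSC 3 rose, among them the p53 ligase Mdm2 (1.06, SE 0.14, adjusted p = 0.000934) and the caspase-8 inhibitor Cflar (1.19, SE 0.20, adjusted p = 0.00337), and Gsk3b fell (all genes 10.7% and 8.96%). In tumors the stress gene Ddit3 rose in PMN-MDSC (1.68, SE 0.39, adjusted p = 0.0449) and M-MDSC (1.16, SE 0.23, adjusted p = 0.0348), where 2.29% and 1.82% of all genes rose. Of the 12 regulators, 4 and 6 had an unadjusted p under 0.05 there, and DESeq2 called 3 and 3. Tumor against spleen gave 3 higher and 4 lower in untreated PMN-MDSC (all genes 29.4% and 29.7%), led by Foxo3 (-1.32, SE 0.19, adjusted p = 0.000218) and Fbxw7 (-0.81, SE 0.18, adjusted p = 0.00328), and 3 higher and 2 lower in treated ones (all genes 28.2% and 25.4%), led by Huwe1 (1.27, SE 0.18, adjusted p = 0.000628) and Trp53 (1.38, SE 0.28, adjusted p = 0.00373). In untreated M-MDSC 4 were higher, against 15.7% of all genes, led by Cflar (1.41, SE 0.13, adjusted p = 1.14e-05) and the kinase gene Pim1 (2.81, SE 0.31, adjusted p = 4.85e-05), and in treated ones edgeR called 0, with 2 at an unadjusted p under 0.05 and 1 called by DESeq2, against 5.11% of all genes called higher and 0.764% called lower by edgeR.

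PMN-MDSC exceeded M-MDSC in 8 of the 12 regulators in untreated and 6 in treated spleens and were lower in 3 and 2. The shares of all genes were 30.9% and 33.4% without and 28.8% and 32.4% with treatment. Ddit3 (3.04, SE 0.25, adjusted p = 9.56e-06) and Foxo3 (1.73, SE 0.15, adjusted p = 1.16e-05) led without treatment, and Huwe1 (-1.41, SE 0.16, adjusted p = 0.000238) and Foxo3 (1.90, SE 0.24, adjusted p = 0.000344) with it. In tumors Ddit3 alone differed in untreated mice (1.41, SE 0.27, adjusted p = 0.00397), being higher as 7.25% of all genes were, and in treated ones edgeR called 0, with 3 at an unadjusted p under 0.05 and 1 called by DESeq2, where edgeR called 0.38% of all genes higher and 0% lower. Bulk tumor had 4 higher and 7 lower than M-MDSC, and 3 higher and 8 lower than PMN-MDSC (all genes 38.2% and 31%, and 36.1% and 33.3%), led in both by Pim1 (-6.61, SE 0.31, adjusted p = 1.88e-08 and -6.93, SE 0.30, adjusted p = 7.07e-09) and Cflar (-2.06, SE 0.18, adjusted p = 1.35e-06 and -1.81, SE 0.16, adjusted p = 1.08e-06). The treatment effect on Cflar differed between the cell types of the spleen (-0.92, SE 0.27, adjusted p = 0.0455), as did that on 10.9% of all genes. In the other 8 pairs of a list and an interaction edgeR called 0 genes, with 1 to 3 at an unadjusted p under 0.05 and 0 to 1 called by DESeq2 in a pair.

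The genes whose levels ran most like those of a member over the 30 MDSC libraries, by the measure used for Bak1, were Eif1 (r = 0.953) and Srgn (r = 0.948) for Mcl1 and Nek6 (r = 0.926) and Hcar2 (r = 0.924) for Bcl2l1. For Bcl2a1a it was Axl (r = 0.818), for Bcl2a1b they were Bcl2a1d (r = 0.928) and Ccl3 (r = 0.925) and for Bcl2a1d Nrp2 (r = 0.931) and Bcl2a1b (r = 0.928). For Bcl2 they were Evl (r = 0.842) and Cfdp1 (r = 0.836), for Bax Ms4a6d (r = 0.921) and Spon1 (r = 0.92), for Bcl2l11 Ppp1r15a (r = 0.917) and Nup98 (r = 0.915) and for Bid Tyrobp (r = 0.95) and Tmem43 (r = 0.949). Libraries share groups, so that these values may largely reflect the 8 groups, which was not tested. Ordering the 9 groups by the mean of a member, neighbouring groups overlapped in 6 or 7 of 8 pairs for every single gene. Neighbours in such an order are set by their means and no share over all genes is given, so this only describes the members.

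The promoters of the 10 genes (13 RefSeq windows on GRCm38.p6, from 250 bases before to 50 after a start) were searched on both strands. The interferon-stimulated response element, written as GAAA, any 2 bases and GAAA, was in 0 of the 10 genes and in 3.44% of 32851 promoters, and the gamma-activated sequence, written as TTC, any 3 bases and GAA, was in 0 and in 8.3%. The absence says only that these letters are not in these windows. The windows of the 3 Bcl2a1 paralogs hold a stretch of 60 bases in common with 0 differences, printed because it shows that the paralogs match before the coding part too, once for Bcl2a1a (chr9:88956747-88956806, plus strand) and the same in Bcl2a1b (chr9:89199056-89199115, plus strand) and Bcl2a1d (chr9:88731958-88732017, minus strand):
Bcl2a1a: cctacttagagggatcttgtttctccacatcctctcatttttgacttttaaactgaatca
It carries no capitals because no position in it differs.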

How the data were processed

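RNA of sorted MDSC and of whole tumors was sequenced after preparation with the SMARTer stranded total RNA pico kit. The authors deposited 1 table of raw gene counts. Per the labels and the study's methods, reads were aligned with BWA within ContextMap to GRCm38 and counted by strand with featureCounts (Subread 1.4.6-p3). Molecular identifiers are not mentioned. The column with 10 counts was left out, 0 other columns of samples were left unused, and 53274 of 53379 identifiers had a symbol. Depth sets the precision: the shallowest library used held 793070 counts, where 1 count is worth over 1 CPM.

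Each comparison was fitted on its own libraries with edgeR 4.0.16 (R 4.3.3, TMM, robust quasi-likelihood, two-sided) over genes with a mean of 25 counts or more, as in the study's own filter, and p-values were adjusted over all genes tested. Paralog sums were fitted in place of the 3 rows. Members below that mean had a two-sided exact permutation test of log2(CPM + 1). FPKM, used only to order genes, is CPM per kilobase of summed exons. Alternatives were DESeq2 1.42.0, RLE scaling, no filter on low counts, 1 fit over all groups, the study's stricter threshold and leaving out each library. A block of column sets, inferred from numbers in column names, and the stricter threshold with DESeq2 were added after seeing the data. The steps were tested on simulated data. A chi-square test of counts over its degrees of freedom gave 6.88 to 55.8 in the 48 pairs of libraries within a group, so no library was a copy of another of its group. Transcript and coding sequences, gene positions and exon lengths are GENCODE's, and promoter windows are RefSeq's, all on GRCm38. The members, marker lists and pathway lists were chosen with earlier results of these data known. All 10 members are described, Mcl1 and Bcl2a1b in each treatment comparison, and of each pathway list the 2 genes with the smallest adjusted p where called. Some genes that these rules name are not reported here. Marker genes, the 2 genes most like a member, and Casp6, Gsk3b and Casp8, named after their values were seen to complete small counts, stand outside the pathway rule.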

Additional observations from a re-analysis of the deposited data

Results flagged for a closer look

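Bcl2 had 1 library far above the rest in each of 2 groups. In treated spleen M-MDSC, library 3 held 41.03 CPM and the others 14.4 to 18 CPM. In untreated tumor M-MDSC, library 4 held 30.8 CPM and the others 8.21 to 9.89 CPM. Among 70 groups of 4 libraries examined by Dixon's criterion, 2 passed, and chance passes about 1 in 20 groups. The rise of Bcl2 with treatment in spleen M-MDSC was 1.44 with library 3 and 0.99 without it.

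The treatment effect differed between groups by the interaction test of edgeR in 7 cases, all values being log2 differences with adjusted p over all genes. Between tumor and spleen PMN-MDSC it was 1.55 for Bcl2a1d (0.0481) and 1.54 for Bax (0.0272), positive where the tumor effect was the higher one. Between PMN-MDSC and M-MDSC of the spleen it was -2.78 for Bcl2a1a (0.0238), -4.40 for Bcl2a1b (0.00844), -3.99 for Bcl2a1d (0.00204), -2.47 for Bcl2 (0.0316) and -1.11 for Bax (0.0437). All 7 use the treated spleen PMN-MDSC, where a Bcl2a1 paralog had at most 21 counts in a library and Bcl2 at most 5, and Bcl2 and Bax reached the count minimum through the groups where they are higher. With the replicate block the calls of Bcl2a1d (adjusted p = 0.165) and Bax (0.0971) between sites were lost. Those of Bcl2 (0.0678) and Bax (0.126) between cell types were lost too.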

How the results depend on the processing

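Of the 73 member results called in the 18 comparisons, 73 were still called by DESeq2, 71 with RLE scaling, 67 without the filter on low counts, 65 in 1 fit over all groups and 39 by the stricter rule, with no change of direction. The stricter rule left 0 members called in treatment of spleen PMN-MDSC, spleen M-MDSC and tumor M-MDSC, in tumor against spleen for treated M-MDSC, and in the interactions of PMN-MDSC and of spleen. It left 4 in tumor against spleen for treated PMN-MDSC, 3 and 4 between the cell types of untreated and treated spleens, and 1 between those of untreated tumors. DESeq2 called 2 for treatment of tumor PMN-MDSC, 2 for tumor M-MDSC, 1 between the cell types of treated tumors and 2 in the M-MDSC interaction. Without the filter on low counts these became 3, 1 (tumor M-MDSC, as with edgeR), 1 and 2, and treatment of spleen M-MDSC had 2. One fit over all groups gave 5 for treatment of spleen PMN-MDSC, 0 for tumor M-MDSC, 2 and 1 between the cell types of untreated and treated tumors, and 1 and 2 in the interactions of PMN-MDSC and M-MDSC. RLE scaling gave 1 and 1 in these interactions. For DESeq2, no count filter, 1 fit over all groups and RLE scaling, the shares of all genes called are not given here. Counts under these settings therefore only describe the members. The stricter threshold with DESeq2, added after seeing the data, gave 2 for treatment of spleen M-MDSC, 0 for tumor M-MDSC, 3 between the cell types of untreated tumors, and 0 and 2 in the interactions of PMN-MDSC and of spleen, where 6.91%, 2.57%, 5.1%, 1.32% and 3.66% of all genes passed. The cause was not tested.

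Leaving out each library in turn, 14 of the 73 calls were lost at least once and 59 held in every fit that tested them. Bcl2a1d for treatment of spleen PMN-MDSC, among the 59, fell under the count minimum without untreated library 1, and Bcl2 in the spleen interaction, among the 14, without treated M-MDSC library 3. The count of members called was 0 to 4 for treatment of spleen PMN-MDSC, 0 to 1 for tumor PMN-MDSC, 3 to 5 for spleen M-MDSC and 0 to 0 for tumor M-MDSC. It was 7 to 7 and 6 to 7 between sites in untreated and treated PMN-MDSC and 5 to 5 and 2 to 3 in M-MDSC. Between cell types it was 5 to 7 and 8 to 8 in untreated and treated spleens and 2 to 5 and 0 to 0 in tumors. Bulk tumor gave 9 to 9 against both. The interactions gave 0 to 2 in PMN-MDSC, 0 to 2 in M-MDSC, 2 to 5 in spleen and 0 to 0 in tumor. A group of 3 was left with 2 libraries.

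Mcl1 changed sign under some settings in treatment comparisons where it was never called. Its log2 fold change ran from -0.29 to 0.085 over libraries left out in spleen PMN-MDSC, from -0.089 to 0.32 in tumor PMN-MDSC and from -0.13 to 0.12 in spleen M-MDSC. In the last it was 0.010 with DESeq2, 0.0099 with RLE scaling and 0.015 without the filter on low counts. Scaling by library totals instead of TMM put the 90 mean levels at 0.66 to 1.23 times their value, and 16 of the 90 moved by more than 1 SD. The replicate block was chosen after seeing the data. It used sets of libraries inferred from the numbers in the column names, left out libraries without a partner, and could not be used for treatment, which compared different mice. Deviations of same-set libraries from their group means correlated at -0.182 to 0.489, and every pair was over 0.1 only in tumor against spleen for treated PMN-MDSC (0.219 to 0.369) and treated M-MDSC (0.19 to 0.236) and between the cell types of untreated spleens (0.123 to 0.248). With the block, 58 of 65 member calls in 14 comparisons held, 7 were lost and Bcl2l1 in treated PMN-MDSC was gained, and 1 member was called between sites in treated M-MDSC, 0 in the PMN-MDSC interaction and 3 in the spleen interaction. The few counts of Bcl2, Bax and the Bcl2a1 paralogs in spleen PMN-MDSC limit what could be detected there.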
